A study of Mus musculus with 11 samples.

Results

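The comparison described here is that of mice kept on 24 h days with mice kept on 26 h days in the dorsal suprachiasmatic nucleus (SCN), the hypothalamic clock of mammals. Its members are all 79 windows of 500 bp that the authors listed for this contrast, out of 1181 distinct windows over the 4 lists of the series. The dorsal list for 22 h days held 131 windows, and the ventral lists held 217 (26 h days) and 812 (22 h days). All mice were wild type C57BL/6Cr1 on postnatal day 90. From 6 weeks of age they were housed for 6 weeks with days of 22, 24 or 26 h and afterwards for 3 days in darkness. They were killed at circadian time 4, a time counted from the onset of subjective day, and no mutation or drug was involved. The dorsal part was cut by knife from 1 slice of about 250 µm in the middle of the SCN, so neighbouring hypothalamic cells could have come along. The labels give 1 dorsal sample for 24 h and 2 for 26 h, while the series entry speaks of duplicates, and the list holds 1 pooled column for each. The variation among mice is therefore unknown, and no p-value was computed.

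The SCN sets daily rhythms of behaviour and physiology. Its ventral part receives most of the retinal input, and its dorsal part is rich in vasopressin neurons and is coupled to the ventral part. In mice, days that are shorter or longer than a solar day leave an after-effect on the free-running period once the light cycle has been removed. The series asked, as its title puts it, about plasticity of the clock and DNA methylation. Methylated DNA immunoprecipitation (MeDIP) captures sonicated DNA, here of about 300 bp on average, with an antibody to 5-methylcytosine, which in the mouse lies mostly at CG dinucleotides. The sequenced reads count captured fragments and do not give a methylation level. No unenriched input was used here, so more methylation of a sequence and more copies of it in the DNA cannot be told apart.

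The 24 h column held about 4580000 reads and the 26 h column about 5770000, as recovered from the steps of the RPKM values (reads per kilobase of window, scaled to the reads of the column). A single read was worth 0.436 RPKM in the 24 h column and 0.347 RPKM in the 26 h column. Folds are ratios of RPKM, with exact 95% intervals (Clopper-Pearson) that cover counting error only. A window with 0 reads was set to a floor of 3 reads, which is 1.31 RPKM at 24 h. Its fold is the value at that floor, and the exact 95% lower limit stands beside it where the window is named. The authors' deposited table gives an unadjusted edgeR p of at most 9.01e-05 for every window, so the windows had been chosen on this very contrast and the sizes below are descriptions.

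Most listed windows were lower on 24 h days. By RPKM, 62 of the 79 windows (78.5%) were lower and 17 were higher, and 59.5% of the list differed at least 4-fold downwards against 13.9% upwards. The lower windows had a median of 1.31 RPKM at 24 h and 13.0 at 26 h, and the higher ones 18.3 and 3.81. By the same measure 93.1% of the dorsal list for 22 h was lower at 24 h, and 73.3% and 75.7% of the ventral lists for 26 h and 22 h. The median log2 ratio of 24 h over 26 h was -2.43 over all windows, -2.78 over the lower and 2.36 over the higher ones. No interval of a ratio included 1. The lower windows fell into 43 places, 19 with 2 neighbouring windows and 24 with 1, and the 17 higher ones each stood alone.

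A 5-base repeat ran through the lower windows. Of the 62 lower windows, 31 (50%) lay within 1000 bp of a tandem run of at least 5 GGAAT units, read on either strand (ATTCC on the other), and none of the 17 higher windows did. The run stood inside the window itself in 18 of the 31. GGAAT in tandem is the unit of the classical satellite DNA of human pericentromeres, whereas the mouse's own major and minor satellites have other, longer units. Whether the reads at these runs came from mouse DNA was not tested, and the values below are those of reads placed at these windows. The mm9 assembly holds only 36 windows of this 500-bp grid with such a run among 5116421 fully known ones, which is 0.000704%, and 18 of those 36 were in the list. The remaining 18 were not analysed here. The runs below carry the largest group of the list, and their capitals mark the unbroken run of whole units. They were read from the plus strand of mm9.
AA545190, chr6:10136364-10136473: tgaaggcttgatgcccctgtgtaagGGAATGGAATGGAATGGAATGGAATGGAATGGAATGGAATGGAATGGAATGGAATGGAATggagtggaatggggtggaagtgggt
Olfr854, chr9:19379857-19379976: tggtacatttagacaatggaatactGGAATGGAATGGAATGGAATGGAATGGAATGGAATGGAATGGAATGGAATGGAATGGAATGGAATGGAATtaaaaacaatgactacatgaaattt
Gm13580, chr2:60240793-60240917: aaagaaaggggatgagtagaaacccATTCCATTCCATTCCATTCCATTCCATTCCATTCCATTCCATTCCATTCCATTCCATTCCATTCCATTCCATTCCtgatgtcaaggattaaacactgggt
Gm17644, chr1:12634832-12634946: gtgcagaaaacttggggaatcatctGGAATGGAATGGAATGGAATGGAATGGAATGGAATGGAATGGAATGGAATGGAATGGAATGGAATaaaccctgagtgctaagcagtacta
Myo7a, chr7:105208526-105208630: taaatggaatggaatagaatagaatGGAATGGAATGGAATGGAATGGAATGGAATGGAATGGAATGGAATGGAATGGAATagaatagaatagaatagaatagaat
Arid1b, chr17:4626275-4626394: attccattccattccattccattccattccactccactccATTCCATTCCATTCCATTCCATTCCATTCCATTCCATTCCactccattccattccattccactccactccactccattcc
The flanks differ from run to run while the capitals repeat, and none of the 6 printed stretches holds a CG.

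The GGAAT windows formed 17 separate places on 10 chromosomes, 14 of them with 2 adjoining windows and 3 with 1. Their longest runs counted 6 to 15 units. At 24 h they were nearly empty, with a median of 1.31 RPKM and a range of 0 to 6.55, and 19 of the 31 had 3 reads or fewer. At 26 h they had a median of 14.9 RPKM, from 6.59 to 58.6. Summed over the group, 123 reads were counted at 24 h and 1488 at 26 h, which is 9.61-fold lower at 24 h (95% interval 7.99 to 11.6). A fragment that spans adjoining windows may have been counted in both, which would make that interval too narrow. Windows with the run inside and windows beside it were lower by 9.52-fold (7.67 to 11.9) and 9.84-fold (6.90 to 14.5) in summed reads. Of the 20 windows with the smallest p in the authors' deposited table, 17 were of this group. The highest 24 h value of the group, 6.55 RPKM, was still below the lowest of its 26 h values, 6.59 RPKM, a separation that the choice of windows on this contrast favours.

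**Figure D1:**
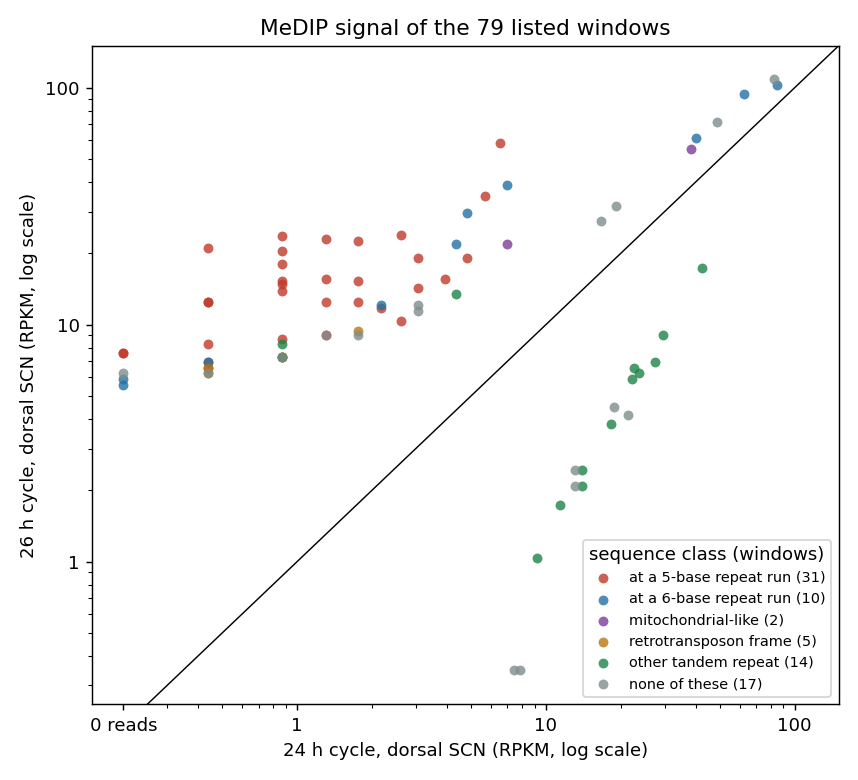
MeDIP signal (RPKM, log axes) of each of the 79 windows in the dorsal 24 h column (x axis) against the 26 h column (y axis), coloured by sequence class, with the line of equal values. The 31 windows at the 5-base GGAAT repeat fill the upper left, between 0 and 6.55 RPKM at 24 h and from 6.59 RPKM upwards at 26 h.

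The densest of these places lay 369 kb from the start of Arid1b, which encodes a subunit of the BAF chromatin remodelling complex, on chr17:4626001-4627000 and outside annotated genes. Its windows held 15 and 13 reads at 24 h and 169 and 101 at 26 h, or 6.55 and 5.67 RPKM against 58.6 and 35. Both were lower at 24 h, by 8.95-fold (5.27 to 16.3) and 6.17-fold (3.45 to 12). This was the only GGAAT place where both 24 h values exceeded 5 RPKM.

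The largest fold of the list was at AA545190, a transcript 788 kb away, with 1 read at 24 h (0.44 RPKM) and 61 at 26 h (21.1 RPKM), a ratio of 48.4 (8.37 to 1944). Next came the window nearest 1700128A07Rik on chromosome 14 and the window near Ndst4, which encodes a heparan sulfate modifying enzyme. Each had 1 read at 24 h and 36 at 26 h, and each was 28.6-fold lower (4.81 to 1160). The wide intervals reflect the single 24 h read, and the sizes of these 3 folds cannot be ranked.

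Several runs lay inside introns. The stretch nearest D17Wsu104e fell in an intron of Dpp9, a dipeptidyl peptidase gene, and its windows went from 23.6 and 13.9 RPKM at 26 h to 0.87 in each at 24 h. Over both windows the reads were 4 against 108, a 21.4-fold difference (8.14 to 80.1). Near Myo7a, a myosin of sensory hair cells, and within its intron, 2 reads in each window stood against 52 and 44 at 26 h, or 0.87 RPKM against 18.0 and 15.3. In an intron of Ano2, which encodes a calcium-activated chloride channel, 3.06 RPKM in each window at 24 h stood against 19.1 and 14.2. That stretch was among the smaller differences of the group, 5.45-fold over both windows (3.09 to 10.3).

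The others lay between genes. At Olfr854, an olfactory receptor gene 7.93 kb away, the window with the run had 2 reads at 24 h against 59 (0.87 against 20.5 RPKM), and its neighbour had 0 against 22. That neighbour was 5.82-fold lower, counted against the floor (exact lower limit 4.35). Gm13580 had 1.31 RPKM in each window at 24 h against 22.9 and 12.5. Gm17644 had 2.62 and 0.44 against 23.9 and 8.32. At Cyr61, a gene for a matricellular protein, 0.87 and 1.31 RPKM stood against 14.9 and 15.6. The smallest fold of the group was 3.97, shared by both windows near Pou4f1, a sensory neuron transcription factor gene, and by the window with the run near 4933427E13Rik. Both values at Pou4f1 were 2.62 and 3.93 RPKM at 24 h and 10.4 and 15.6 at 26 h.

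A second group of lower windows lay at the telomere repeat. TTAGGG is the unit that caps mouse chromosomes and also occurs in short runs inside them. Of the lower windows, 10 lay within 1000 bp of a run of at least 5 such units and none of the higher ones did. The assembly holds 223 grid windows with such a run inside, and 3 of them were listed, against 18 of 36 for GGAAT.

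At the long arrays the differences were smaller where the signal was high, a relation that the choice of windows by p on this contrast favours. The array window near Gm14496, at the assembled end of chromosome 2, had 85.1 RPKM at 24 h against 103 at 26 h, 1.21-fold lower (1.01 to 1.46). The array window nearest Tmx3, a thioredoxin-related gene, at the end of chromosome 18 had 62.4 against 94.3, and that on the X chromosome nearest G530011O06Rik had 40.2 against 61.4. Each array also had a neighbouring listed window that runs past the assembled bases, with 87 known bases on chromosome 2, 31 on chromosome 18 and 6 on the X chromosome. Those 3 windows had 4.36, 6.98 and 4.8 RPKM at 24 h and 21.8, 38.8 and 29.5 at 26 h, and were 5.0-fold (2.55 to 10.9), 5.56-fold (3.28 to 10.1) and 6.14-fold (3.26 to 12.8) lower. Their RPKM are per 500 bp although most of that length is unknown sequence.

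Beside the short interior runs the 24 h column was almost without reads. The windows near Rims1, a presynaptic active zone gene with the window in its intron, and near Cenpw, a centromere protein gene, had 0 reads at 24 h. At 26 h they had 16 and 17 reads (5.55 and 5.89 RPKM). Counted against the floor, they were 4.24-fold and 4.5-fold lower, with exact lower limits of 3.06 and 3.28. Near Tbl1xr1, a corepressor subunit gene, 1 read stood against 20, and near 4930529K09Rik 5 reads against 35. Over these 4 windows the reads were 6 at 24 h and 88 at 26 h, an 11.6-fold difference (5.14 to 32.6).

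**Figure D2:**
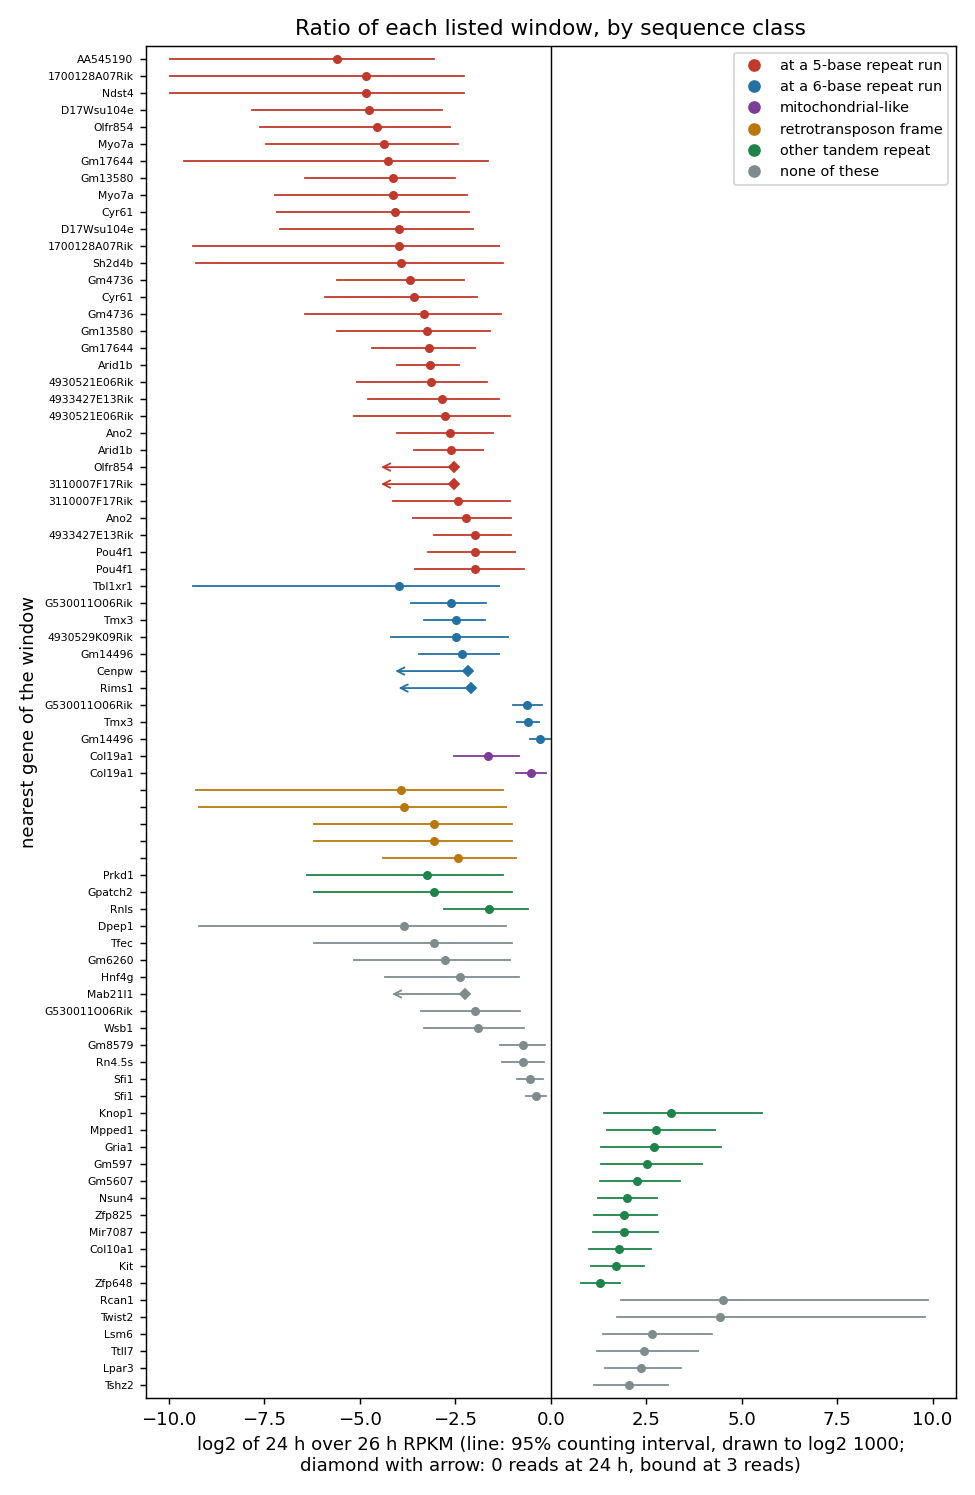
log2 of the 24 h over the 26 h RPKM for each of the 79 windows (1 row each, named by nearest gene except in the retrotransposon class), with 95% counting intervals and colours for sequence class; diamonds with arrows mark 0 reads at 24 h. The GGAAT windows (5-base repeat) lie between 3.97-fold and 48.4-fold lower, and all 17 higher windows are tandem repeats or of none of the classes.

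The remaining 21 lower windows held neither repeat and had a median of 9.01 RPKM at 26 h and 1.75 at 24 h. Of the 21, 14 had 15 CG sites or more, whereas 1 of the 41 windows at a GGAAT or TTAGGG run did. In the assembly 2.22% of grid windows had that many. Both Sfi1 windows lay at the start of the gene, which encodes a centrin-binding protein of the centrosome, on chr11:3093001-3094000. They had 82.9 and 48.9 RPKM at 24 h against 108 and 71.7 at 26 h, and were lower by 1.31-fold (1.09 to 1.57) and 1.47-fold (1.16 to 1.86). The former held 42 CG sites, the most in the list, and its 26 h value was the highest of all.

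Dpep1, the gene of a membrane dipeptidase, had a listed window 1.12 kb from its start on chr8:125711001-125711500. It lay outside exons in unique sequence and held 1 read at 24 h and 18 at 26 h (0.44 against 6.24 RPKM), 14.3-fold lower (2.26 to 596). Of its 14 CG sites, 8 stand in the bases shown, in capitals, as an example of a promoter window with CG sites in unique sequence.
Dpep1, chr8:125711001-125711250: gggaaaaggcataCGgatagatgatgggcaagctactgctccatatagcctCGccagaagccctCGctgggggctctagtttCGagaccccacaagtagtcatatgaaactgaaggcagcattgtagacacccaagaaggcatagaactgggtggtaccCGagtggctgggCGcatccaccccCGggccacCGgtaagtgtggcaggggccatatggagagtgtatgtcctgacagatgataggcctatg
The window nearest Mab21l1, a developmental gene, lay at an exon of Nbea, which encodes the trafficking protein neurobeachin. Its 18 reads at 26 h stood against 0 at 24 h, a 4.76-fold difference counted against the floor (exact lower limit 3.49).

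Windows at retrotransposons and mitochondrial-like sequence made up the rest together with unclassed ones. Within 8000 bp of 7 lower windows stood a long reading frame with a reverse transcriptase motif of LINE-1 or LTR elements, and 2 of the 7, near Cenpw and Gm14496, have been described at their TTAGGG runs. The other 5 windows, among them those nearest Got2, Vmn2r-ps11, 1700061F12Rik and D16Ertd519e, had 10 reads in all at 24 h and 106 at 26 h. Their sequence was mostly repeated, with a median of 1108 genomic copies per 31-base word. Both Col19a1 windows matched the mitochondrial genome in 100% of their words, so reads from mitochondria and from this nuclear copy cannot be told apart. They had 6.98 and 38.4 RPKM at 24 h against 21.8 and 55.1 at 26 h. G530011O06Rik was the only gene nearest to 3 listed windows. Besides the array windows, it was nearest to a unique window in Mid1, a gene for a microtubule-associated ubiquitin ligase, with 3.06 against 12.1 RPKM.

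Short tandem repeats of other kinds were common among the 17 higher windows. In 11 of them at least 30% of the 15-base words recurred within 100 bp, which was the case in 0.586% of 2558 sampled genome windows, and 6 of those 11 held no CG at all. The same threshold was passed by 12 of the 62 lower windows, 9 of them at a GGAAT or TTAGGG run. It was passed by 43.1% and 41.6% of the higher windows in the ventral lists for 26 h and 22 h and by 33.3% in the dorsal list for 22 h. Windows with such a repeat had 22.3 RPKM at 24 h (median; 9.17 to 42.3) and 5.89 at 26 h (1.04 to 17.3). The other 6 had 13.1 (7.42 to 21.4) and 2.26 (0.35 to 4.51). Lpar3 and Twist2 were just under the threshold of 30%, with 29.2% and 28.4% of their words, and the remaining 4 had at most 7.41%. Summed reads were 538 against 182 with the repeat, 3.72-fold higher (3.14 to 4.43), and 187 against 40 without, 5.89-fold higher (4.17 to 8.50). With a threshold of 25%, chosen after seeing the data, 13 windows counted as repeats and the folds were 3.90 (3.31 to 4.61) with and 5.64 (3.69 to 8.91) without. The stretches below show the repeats of 5 higher windows. Capitals mark the 12-base word with the most copies in each window. Overlapping copies were not counted, and ties went to the last word in the alphabet.
Nsun4, chr4:115718001-115718128: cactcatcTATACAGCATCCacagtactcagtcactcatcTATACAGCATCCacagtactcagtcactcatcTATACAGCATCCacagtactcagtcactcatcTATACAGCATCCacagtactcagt
Gria1, chr11:56845501-56845626: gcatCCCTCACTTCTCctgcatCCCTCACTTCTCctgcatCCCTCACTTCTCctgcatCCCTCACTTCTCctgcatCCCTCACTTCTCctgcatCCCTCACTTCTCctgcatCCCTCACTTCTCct
Mpped1, chr15:83657001-83657132: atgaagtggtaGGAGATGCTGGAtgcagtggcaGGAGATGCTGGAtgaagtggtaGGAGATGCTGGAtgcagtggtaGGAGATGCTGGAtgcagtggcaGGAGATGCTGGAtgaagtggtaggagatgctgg
Zfp648, chr1:156054501-156054623: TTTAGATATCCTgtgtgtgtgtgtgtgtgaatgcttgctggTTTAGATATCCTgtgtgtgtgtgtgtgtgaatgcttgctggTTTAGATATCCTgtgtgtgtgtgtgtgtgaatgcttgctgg
Col10a1, chr10:34074001-34074130: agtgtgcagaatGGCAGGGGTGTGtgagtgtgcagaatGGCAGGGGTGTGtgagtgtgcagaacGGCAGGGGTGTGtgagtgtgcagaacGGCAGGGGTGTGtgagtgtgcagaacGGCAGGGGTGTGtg
The units repeat every 32 bases at Nsun4, 18 at Gria1, 41 at Zfp648 and 26 at Col10a1, and thus differ in length. The windows near Nsun4, Gria1, Mpped1 and Zfp648 hold 0 CG sites and that near Col10a1 holds 4.

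Gria1, which encodes an AMPA-type glutamate receptor subunit, was the only gene of 16 lists (452 genes, 445 of them in the annotation used) that was nearest to any window. The lists covered clock genes, SCN neuropeptides, GABA and glutamate signalling, ion channels, light input, methylation enzymes, axon guidance, adhesion, developmental transcription factors, imprinted genes and cell type markers. Over all genes, the listed windows had only 59 distinct nearest genes, so few members of any gene list could be among them. The share of all annotated genes nearest to a window was not computed. Whether these lists were hit more or less often than other genes was therefore not tested. None of the 28 marker genes was nearest to a window, so the list cannot be used to check the cell types in the tissue. The Gria1 window lies in an intron, 19.2 kb from the start, and had 26 reads at 24 h and 5 at 26 h (11.3 against 1.73 RPKM), 6.55-fold higher (2.47 to 21.8).

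Among the other repeat windows, the highest 24 h value was at Zfp648, a zinc finger gene 6.43 kb away, with 42.3 RPKM against 17.3 at 26 h. Its 2.44-fold difference (1.72 to 3.51) was the smallest of the higher windows. Nsun4, a mitochondrial ribosomal RNA methyltransferase gene with the window in an intron, had 27.5 against 6.93. Mpped1, a metallophosphoesterase gene expressed in brain, had 14.0 against 2.08 in an intron. The window nearest Col10a1, a collagen gene, lay in an intron of Nt5dc1 and had 22.7 against 6.59. Zfp825 (23.6 against 6.24), Gm5607 (18.3 against 3.81) and Knop1 (9.17 against 1.04, in an intron of Iqck) were likewise at repeats. The fold at Knop1 was 8.82 (2.63 to 46.2) on 3 reads at 26 h.

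Only 2 of the repeat windows were rich in CG. The window 85.7 kb from Kit, a receptor tyrosine kinase gene, held 22 and had 29.7 RPKM at 24 h against 9.01, 3.29-fold higher (2.07 to 5.39). The window nearest the microRNA gene Mir7087 held 19, lay in the promoter of Sidt2, a lysosomal membrane protein gene, and had 22.3 against 5.89, 3.78-fold higher (2.15 to 6.98). The stretches below are from tandem repeat windows near Gpatch2 and Rnls, which also carried CG (in capitals) but were lower at 24 h.
Gpatch2 (lower), chr1:189178001-189178124: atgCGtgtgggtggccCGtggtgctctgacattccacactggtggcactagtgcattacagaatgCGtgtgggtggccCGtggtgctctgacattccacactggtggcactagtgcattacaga
Rnls (lower), chr19:33152501-33152628: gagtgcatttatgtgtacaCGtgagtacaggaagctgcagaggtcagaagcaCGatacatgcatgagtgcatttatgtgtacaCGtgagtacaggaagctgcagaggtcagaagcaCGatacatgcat
Gpatch2 had 0.87 RPKM at 24 h and 7.28 at 26 h with 16 CG sites, and Rnls, the renalase gene, had 4.36 and 13.5 with 15. Together with the window near Prkd1, a protein kinase gene (0.87 against 8.32, 11 CG sites), these were the 3 lower windows at other tandem repeats. All 3 therefore held at least 11 CG sites, while 9 of the 11 higher ones held 4 or fewer. That contrast depends on the order of the classes. The 9 lower tandem windows counted at GGAAT or TTAGGG runs held 0 to 2 CG sites.

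The Gm597 window, in a repeat at an exon and the promoter of Gm17684, had 14.0 RPKM at 24 h against 2.43 at 26 h. Higher windows outside such repeats were near Rcan1, an inhibitor of the phosphatase calcineurin, and Twist2, a transcription factor gene, each with 1 read at 26 h. Rcan1 had 7.86 RPKM at 24 h against 0.35 and Twist2 7.42 against 0.35, ratios of 22.7 (3.58 to 944) and 21.4 (3.35 to 895). Lpar3, a lysophosphatidic acid receptor gene, had 21.4 against 4.16. Tshz2, a zinc finger homeobox gene, had 18.8 against 4.51. Ttll7, a tubulin glutamylase gene 731 kb away, and Lsm6, a gene for a protein of the U6 RNA-binding ring, had 13.1 each against 2.43 and 2.08.

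CG content set the classes apart. The fully known GGAAT windows had a median of 2 CG sites, the genome's grid windows 3, and the higher tandem windows 0. Retrotransposon windows and the unclassed lower windows each had a median of 15. Across the list, 44 of 79 windows had 3 CG sites or fewer. The list as a whole had a median of 3, as did the grid windows, whose share with 3 or fewer was not computed. Of the 79 windows, 50 were mostly unique, that is at least 50% of their 31-base words occurred once in mm9 (63.3%, against 87.0% of sampled genome windows), among them 28 of the 31 GGAAT windows. How many reads the aligner placed by chance among copies was not tested.

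**Figure D3:**
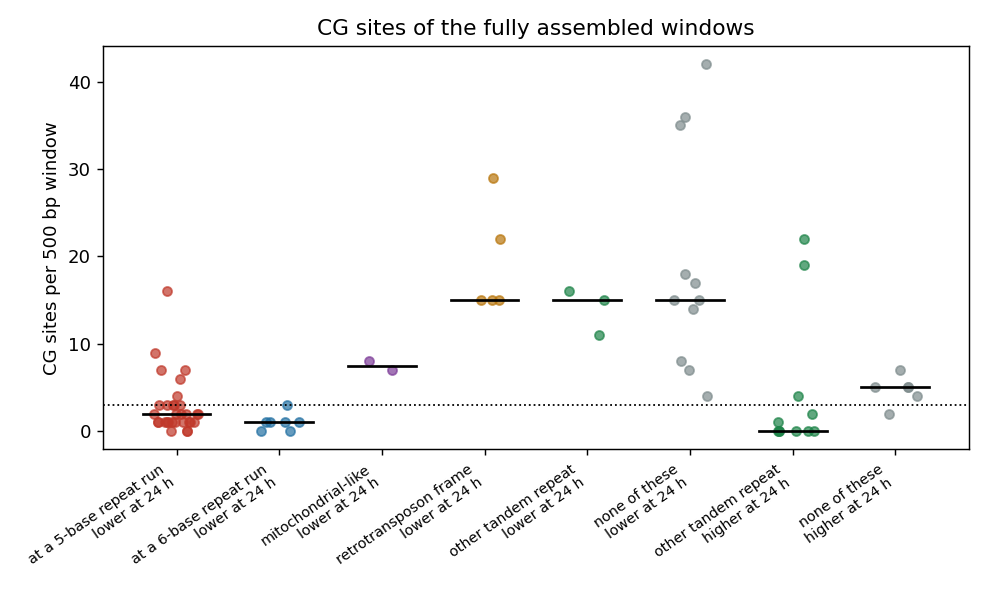
CG sites per 500 bp (y axis) of the fully assembled listed windows by sequence class and direction, with a bar at each median and a dotted line at the genome median of 3. The GGAAT class (5-base repeat) has a median of 2, the higher tandem repeats 0, and the retrotransposon class 15.

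In the list 8 windows (10.1%) were within 1000 bp of the start of a transcript, against 5.06% of grid windows, and 5 (6.33%) touched an exon, against 7.43%. Both mitochondrial-like Col19a1 windows and both adjoining Sfi1 windows were among those 8, so the 8 are not separate places. A gene held 25 of the 79 windows (31.6%), against 41.7% of grid windows. The median distance to the nearest start given by the authors was 85.7 kb, and 34 windows were more than 100 kb away. Distances of grid windows were not computed for comparison. Of the lower windows 15 of 62 lay in a gene, and of the higher ones 10 of 17. No promoter window was at a GGAAT or TTAGGG run.

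The dorsal list for 24 h against 22 h shares 26 windows, which are 32.9% of this list and 19.8% of that one. Both lists use the same 24 h column, and its values at these windows are identical, so the low 24 h value is counted in both and the lists do not support each other. Only the 22 h and 26 h columns are separate. The 13 shared GGAAT windows had a median of 8.74 RPKM at 22 h and 18.0 at 26 h, with each 22 h value between those at 24 h and 26 h. AA545190 had 0.44, 11.9 and 21.1 RPKM at 24, 22 and 26 h, Olfr854 had 0.87, 11.2 and 20.5, and Gm17644 had 2.62, 10.1 and 23.9. The order was 26 h above 22 h in all 13, by a median of 1.89 times, from 1.04 to 2.58. No interval was computed for these ratios, and adjoining windows of a place were counted separately. The smallest ratio, nearest 1700128A07Rik, rests on 20 reads at 26 h against 19 at 22 h.

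At the shared TTAGGG windows the order was mostly the other way. All 10 were shared, and 9 had more signal at 22 h than at 26 h. The medians over the 10 were 41.8 and 25.6 RPKM. The Tmx3 window at the assembled end had 6.98, 61.9 and 38.8 RPKM at 24, 22 and 26 h, and the Gm14496 array window 85.1, 132 and 103. The exception was the Rims1 window, with 4.89 RPKM at 22 h and 5.55 at 26 h, or 14 and 16 reads. The Cenpw window had 18 reads at 22 h and 17 at 26 h, and no interval was computed for these orders. Both Col19a1 windows were also higher at 22 h, with 43.3 and 98.2 RPKM against 21.8 and 55.1 at 26 h. The Mid1 window had 10.8 and 12.1.

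**Figure D4:**
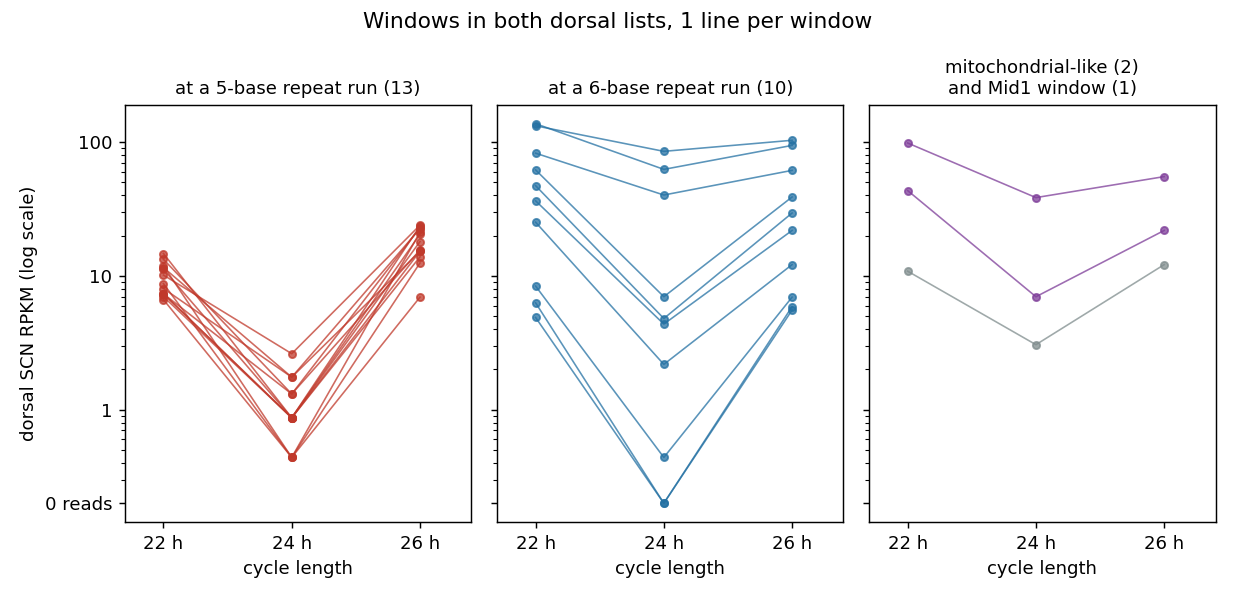
Dorsal RPKM (log axis) of the 26 windows in both dorsal lists at 22, 24 and 26 h, 1 line per window, with the 13 at the 5-base GGAAT repeat, the 10 at the 6-base TTAGGG repeat and the 3 others in separate panels. All GGAAT lines end higher at 26 h than at 22 h, and 9 of the 10 TTAGGG lines end lower.

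The ventral lists held none of the GGAAT windows, and no ventral value at them was analysed here. A GGAAT run stood within 1000 bp of 39.2% of the windows of the present list, 9.92% of the dorsal list for 22 h, and none in either ventral list. With the ventral list for 24 h against 26 h, 5 windows were shared, 6.33% of this list and 2.3% of that one. These lists share no column. Both Col19a1 windows were lower at 24 h in both parts, with ventral values of 40.5 against 111 and 85.3 against 128 RPKM. By RPKM, the first Sfi1 window and the array windows nearest Tmx3 and Gm14496 were lower in the dorsal and higher in the ventral 24 h column. Without scaling to depth, those array windows had fewer ventral reads at 24 h than at 26 h. Sfi1 had ventral values of 102 RPKM at 24 h and 51.7 at 26 h, 1.97-fold higher (1.65 to 2.35), against the dorsal 1.31-fold lower.

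With the ventral list for 24 h against 22 h, 3 windows were shared and all were higher at 24 h in both. Gm597 had ventral values of 16.1 at 24 h and 5.14 at 22 h, Kit 20.3 and 6.36, and Mir7087 14.5 and 4.65. Their ventral folds were 3.12 (1.81 to 5.55), 3.18 (1.96 to 5.30) and 3.12 (1.76 to 5.74). The dorsal folds against 26 h were 5.76, 3.29 and 3.78, and the cycle compared is not the same.

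**Figure D5:**
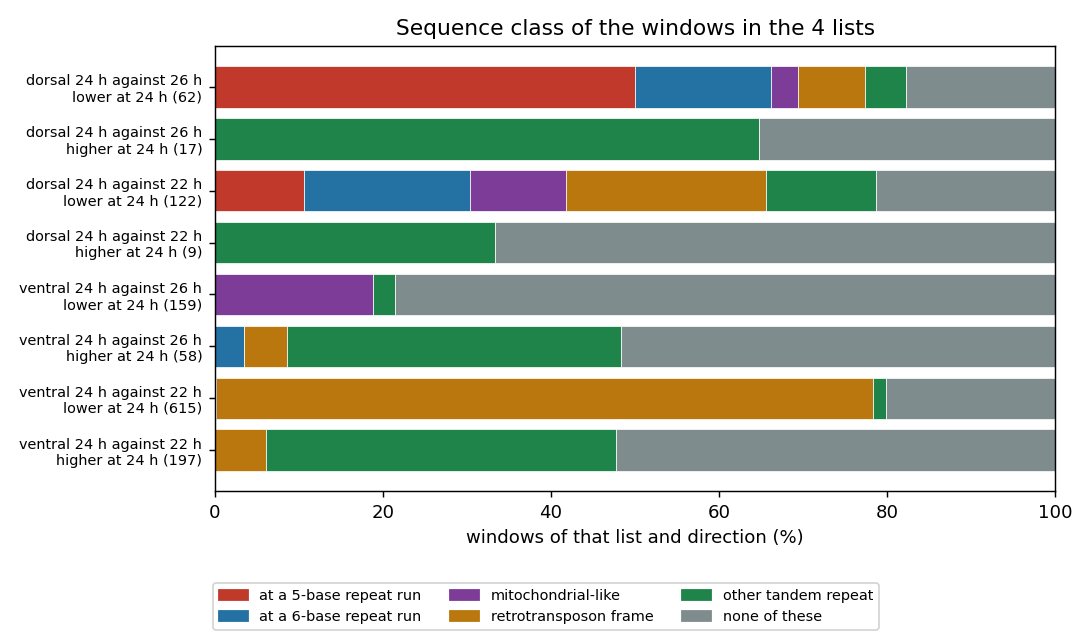
Share of windows (%) in each sequence class for the 4 lists, split by direction at 24 h, with the number of windows in brackets. The 5-base GGAAT repeat takes 50% of the lower windows of the dorsal 24 h against 26 h list and 10.7% of those of the dorsal 24 h against 22 h list, and tandem repeats take 64.7% of the higher windows of the former.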

How the data were processed

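MeDIP DNA of dorsal SCN was sequenced, and the submitters' processing notes name BWA and mm9; versions and window criteria are not given in the sources used here. Per the file headers, the authors deposited for each cycle length a count column, whose whole numbers are a rescaled score that keeps the order of the reads and is not a read count. They also deposited RPKM, an edgeR log2 fold change (24 h over 26 h) and an unadjusted edgeR p-value, per the file headers. Over the 4 lists, 16 columns of means, which repeat the single columns, were not used. Of the 79 windows, 25 of the lower ones had a p above 1e-05.

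Reads were recovered from the RPKM steps: 100% of values were whole reads within 0.1 read. The procedure was tested on simulated data. Intervals are exact binomial 95% limits. No molecular identifiers were used, so reads need not be separate molecules, and intervals and floors cover counting error only. In windows with reads in both columns, the authors' log2 fold change lay a median of 0.07 from the log2 ratio of unscaled reads and -0.26 from that of RPKM.

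Sequence came from mm9 and annotation from GENCODE M1. The copies of each 31-base word were counted over mm9, and 1 in 2000 grid windows was sampled for comparison. Motifs were GGAAT and TTAGGG on both strands in runs of at least 5 units. A window took the first class that applied: GGAAT run, TTAGGG run, at least 50% mitochondrial words, a reverse transcriptase frame of at least 600 codons within 8000 bp, other tandem repeat, none. An annotation of repeats was not used here. Members, lists and sequence classes were chosen with earlier results of these data known. Named were the genes nearest to every higher window and the 10 largest folds among lower ones. Genes with 3 or more windows, genes of the lists, and windows in exons or promoters were named too. So were windows in another list, except those nearest Gm4736 and 4930521E06Rik. Arid1b, Ano2, Pou4f1, 4933427E13Rik, Prkd1, Rnls, Gpatch2 and the retrotransposon windows were chosen after their values were seen. Of the 16 lists, only that of glutamate receptors and scaffolds had a member. Some stretches of sequence and 1 gene name are not reported here. Computations used scipy 1.17.1, pandas 2.3.3, numpy 2.4.6, numba 0.67.0 and Python 3.11.15.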

Additional observations from a re-analysis of the deposited data

Results flagged for a closer look

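At 3 windows the dorsal and the ventral 24 h against 26 h comparisons went opposite ways by RPKM. The ratio of 24 h over 26 h RPKM at the first Sfi1 window was 0.764 in the dorsal and 1.97 in the ventral part. It was 0.662 and 1.35 at the array window nearest Tmx3, and 0.827 and 1.39 at the array window nearest Gm14496. The intervals of the 6 ratios covered counting error only and none included 1. With 1 column per group the difference between the parts was not tested. At the array windows nearest Tmx3 and Gm14496 the ventral direction depends on scaling to depth. Before scaling, they had 407 and 405 ventral reads at 24 h against 543 and 525 at 26 h. The ventral columns held about 5230000 reads at 24 h and 9430000 at 26 h. The first Sfi1 window had 266 ventral reads at 24 h against 244 at 26 h. The Sfi1 window has 42 CG sites and the array windows have 0.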

How the results depend on the processing

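Every window kept its dorsal direction by RPKM, by the authors' log2 fold change and by reads without scaling. Merging windows with gaps of up to 1000 bp left 43 lower and 17 higher places. Windows with an authors' p at or under 1e-05 were 37 lower and 3 higher, and mostly unique windows were 42 lower and 8 higher. Alternatives chosen after seeing the data left out the windows at GGAAT runs, which left 31 lower and a median log2 ratio of -0.72, or those at GGAAT or TTAGGG runs, which left 21 lower and -0.54. By construction these leave out only lower windows. With 1 read added to both columns the median was -2.42, and with the authors' values -2.78. Windows within 1000 bp of a GGAAT run numbered 31 with at least 3 units and 28 with at least 8, and 18 held the run inside. Counted within 1000 bp, 8 windows were shared with the ventral 26 h list and 32 with the dorsal 22 h list, and 10 were within 2500 bp of a transcript start. No paired analysis was possible because each group has 1 pooled column, which also left no replicate to omit. Low depth widens the intervals: 27 windows had 1 to 3 reads at 24 h, 3 had them at 26 h and 5 had 0 reads at 24 h.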
